A study of Mus musculus with 6 samples.

Results

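The genes described here are 43 components of the DNA replication and mitosis machinery, among 24421 gene symbols in the count table. They were chosen by name as the genes commonly read as signs of dividing cells, with earlier results of these data known. They fall into 19 genes of S-phase entry and DNA replication and 24 genes of mitosis, hereafter the replication genes and the mitosis genes. RNA was sequenced from CD31+CD45- endothelial cells (ECs, the lining of blood vessels) sorted from the livers of wild-type C57BL/6J mice, 3 of them 10 weeks old (young 1 to 3) and 3 aged, at 127, 131 and 136 weeks. The mice were female, gross pathology was a ground for exclusion, and the labels name no treatment for either group. The study asked how the transcriptome of liver ECs differs with age. Whether a sample pooled animals is not stated, and the 3 aged samples differ in age among themselves.

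A cell that divides first licenses its replication origins by loading the MCM helicase, then copies its DNA in S phase behind the sliding clamp PCNA, and then separates the copies in mitosis under the control of cyclin B with CDK1, the Aurora and Polo kinases and the anaphase-promoting complex. Transcription of the first set is governed largely by E2F factors, and that of the mitotic set by the DREAM and MYB-MuvB complexes, which act at promoter elements named the cell cycle genes homology region (CHR) and at CCAAT boxes bound by NF-Y. ECs of the resting adult liver are mostly quiescent, and such transcripts are scarce in quiescent cells.

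The 6 libraries held 23001556 to 31651817 counts over genes, and levels are given as CPM (the reads of a gene relative to the total of its library), scaled with TMM factors of 0.964 to 1.11. At these depths 3 counts, the floor used here, correspond to 0.0946 to 0.135 CPM, and all 43 genes were above it in every library, the lowest being 6 counts for Cenpe in the 131-week sample. The endothelial markers Pecam1 (1370 to 1630 CPM) and Tie1 (1150 to 1440 CPM) were abundant in all 6 libraries. The sinusoidal receptor Stab2 stood at 2900 to 3200 CPM in young and 504 to 1760 CPM in aged mice. Of the 10 endothelial markers read, Kdr, Tek, Clec4g and Oit3 were, like Stab2, lower in every aged library than in every young one. The ages overlapped for the others, Pecam1, Tie1, Cdh5, Erg and Lyve1. The 10 summed to 17300 to 19300 CPM in young and 9160 to 13300 CPM in aged mice. Lars2 and Rn45s, symbols to which ribosomal RNA reads are assigned, took 1.29% of counts in young 3 and 0.96% in the 127-week sample but 4.68% to 5.53% in the other 4 libraries, so age differences within each of these library clusters are given for the main genes, first for the cluster of 4 libraries and then for the pair.

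The most abundant transcripts of the set were those of replication genes, but both groups held scarce ones. Compared per transcript length, as the deposited FPKM values, which are scaled by transcript length and library depth, the highest mean over the 6 libraries belonged to Pcna at 78.3 FPKM. It was followed by the helicase subunits Mcm3 at 47.2 and Mcm6 at 31 FPKM, by the ribonucleotide reductase subunit Rrm1 at 19.1 FPKM, and by the centromeric histone H3 variant Cenpa at 18.8 FPKM, the only mitosis gene among these. Top2a, the topoisomerase that untangles sister chromatids, averaged 2.36 FPKM, and Mki67, which codes for the Ki-67 protein on the surface of mitotic chromosomes, averaged 0.634 FPKM. The licensing factor Cdc6 averaged 0.592 and the S-phase cyclin Ccne2 0.709 FPKM, and the lowest of the 43 were the atypical E2F repressor E2f8 at 0.323 FPKM and the kinetochore motor Cenpe at 0.246 FPKM.

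**Figure D1:**
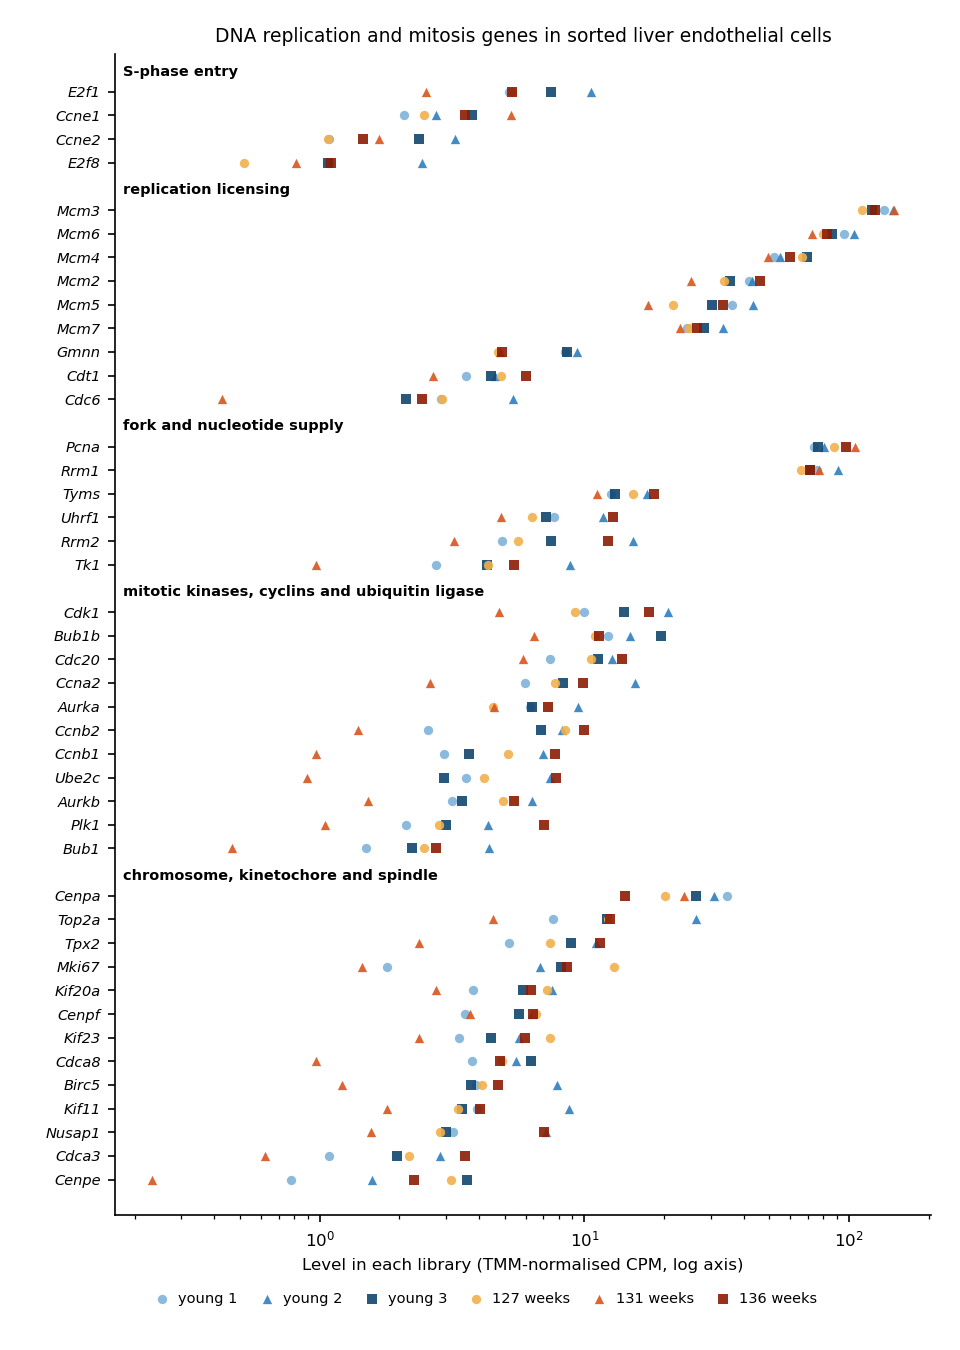
TMM-normalised CPM of the 43 genes (rows, grouped by role and ordered by mean level) in each of the 6 libraries (blue, young; orange to red, aged) on a log axis. The 6 helicase genes vary by 1.32-fold (Mcm3) to 2.49-fold (Mcm5) but the licensing factor Cdc6 by 12.6-fold, and in 21 of the 24 mitosis rows the 131-week triangle lies farthest left.

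For aged against young ECs, no member of the set passed the test. Of the 43 genes, 32 had a negative and 11 a positive log2 fold change. The median was -0.21 and the range from -0.91 to 0.46, against a median of 0.01 over the 14612 genes tested. Of those 14612 genes, 7150 had a negative log2 fold change. All genes were read in the same 6 libraries, so these directions are not independent. An unadjusted p below 0.05 in edgeR was reached by the licensing inhibitor Gmnn, the checkpoint kinase Bub1b and the centromere histone Cenpa. These were lower in aged ECs. The sliding clamp Pcna, which was higher, also reached it. Since whole sorted samples were sequenced, 3 things cannot be told apart. They are the share of cells in cycle, the level of these transcripts per cycling cell, and transcripts from cells other than ECs.

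By edgeR's quasi-likelihood test with Benjamini-Hochberg adjustment over all genes tested, 0 of the 43 genes were called at an adjusted p below 0.05, as were 0% of all genes, and the smallest adjusted p among the 43 was 0.24, for Gmnn. At an unadjusted p below 0.05, 1 of the 43 was higher in aged ECs (8.32% of all genes) and 3, or 6.98%, were lower (4.32% of all genes). Every aged library lay above every young library for 1 gene (9.62% of all genes) and below for 4 genes (8.33% of all genes), a share of 9.30% of the 43. The counts of 3 and 4 lower genes were thus near what the shares of all genes give for a set of this size. DESeq2 called 0 of the 43 higher (3.37% of the 14262 genes to which it gave an adjusted p) and 1 lower, Gmnn (1.05% of those genes). The p-values measure the spread between the 3 samples of an age, which the methods describe as independent, and an exact permutation test of 3 against 3 cannot give less than 0.1.

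**Figure D2:**
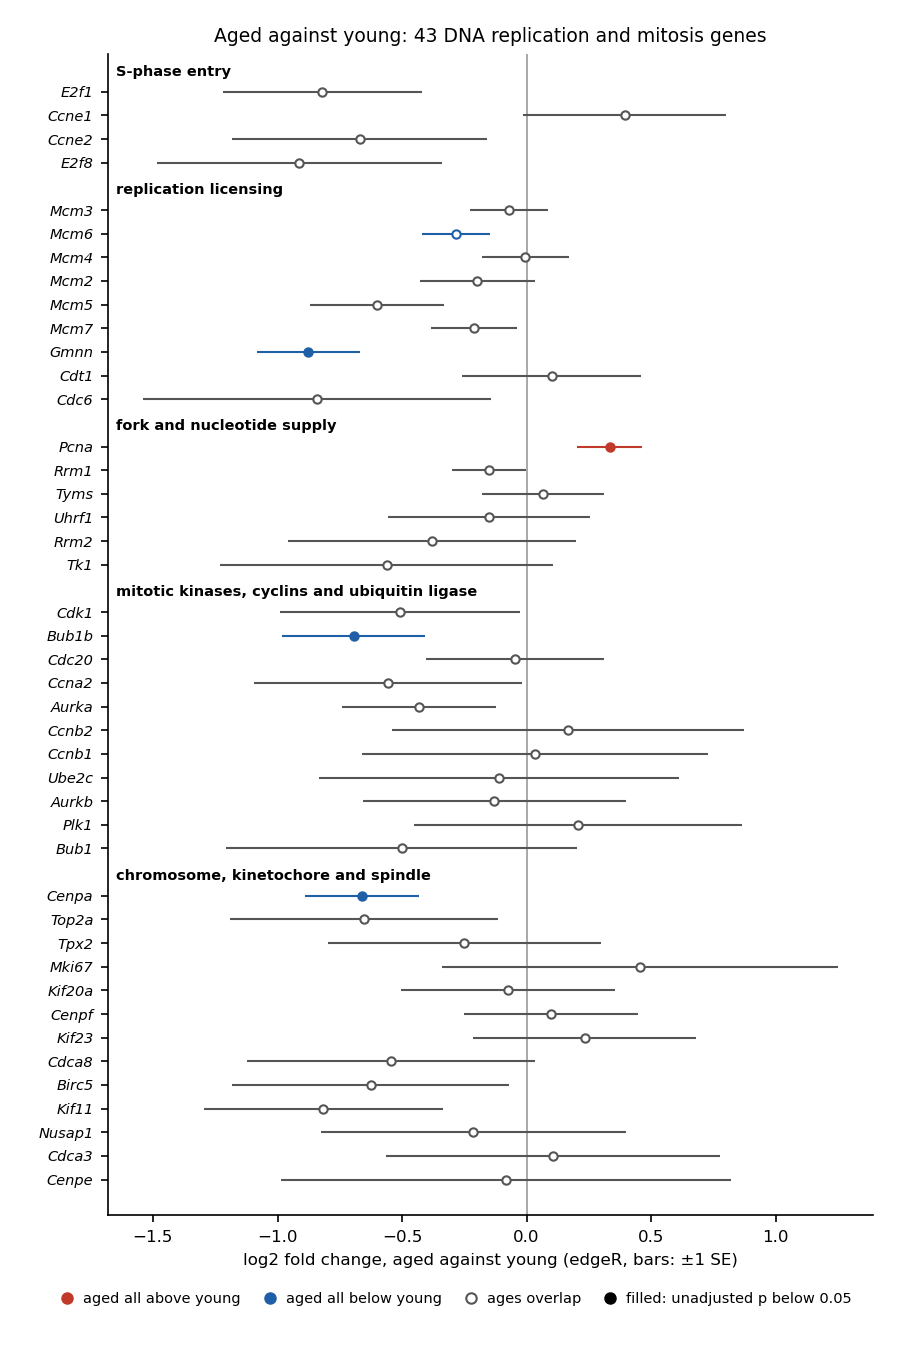
The log2 fold change of aged against young (edgeR, bars show 1 SE on each side) for each of the 43 genes, grouped by role. Points colored blue or red mark genes whose aged and young libraries did not overlap (4 lower, 1 higher), and filled points an unadjusted p below 0.05, which Gmnn, Bub1b, Cenpa and Pcna reached. Most bars of the mitosis genes cross zero.

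Which age had the higher levels of the mitosis genes depended on single libraries. Of the 24 mitosis genes, 21 were lowest in the 131-week sample, where their median deviation from the mean of the 6 libraries was -1.18 on the log2 scale. The exceptions were Aurka, lowest at 127 weeks, Cenpa, lowest at 136 weeks, and Cenpf, lowest in young 1. Young 2 was the highest library for 10 of the 24, with a median deviation of 0.59, and the 136-week sample for 7, with 0.41, while young 1 lay at -0.35. Over all genes tested the 131-week sample was lowest for 12.7%, young 2 was highest for 11.5% and the 136-week sample was highest for 25.7%. The 7 genes highest at 136 weeks, 29.2% of the 24, were thus near the share of all genes.

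Of 80 further mitosis proteins outside the set, 59 were lowest in the 131-week sample and 38 highest in young 2. Among the 19 replication genes, 12 were lowest in the 131-week sample and 11 highest in young 2, and the deviations were smaller, with medians of -0.35 and 0.32. The median ratio of the highest to the lowest library, computed after adding 0.5 CPM, was 4.10 for the mitosis genes, 2.04 for the replication genes and 1.83 for all genes tested. The median level was 5.12 CPM for the mitosis genes and 8.45 CPM for the replication genes, against 18.3 CPM for all genes. Together the 24 mitosis genes held 2000 counts in the 131-week sample and 5310 in young 2. Counting error widens such ratios for scarce transcripts, and its share in these ratios was not tested.

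Without the 131-week sample the median log2 fold change of the 24 mitosis genes went from -0.17 to 0.20, and without young 2 to 0.07. Without the 136-week sample it was -0.70, and without young 1 it was -0.43. For all 43 genes the median stood at -0.01 without young 2, -0.03 without the 131-week sample and -0.66 without the 136-week sample. In each of these fits 0 of the 43 genes were called. At an unadjusted p below 0.05 the count of lower genes went from 3 to 1 without young 2 and to 5 without the 136-week sample, and that of higher genes from 1 to 0 without any single library other than the 127-week one.

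**Figure D3:**
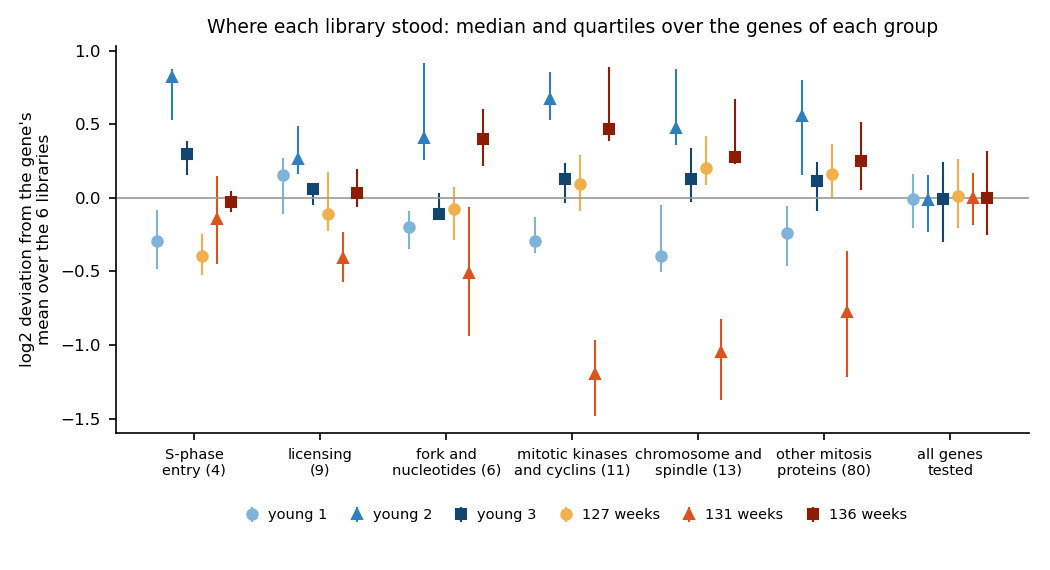
Median (symbol) and quartiles (bar) of the log2 deviation of each gene from its own mean over the 6 libraries, for the 5 role groups, the further mitosis genes and all genes tested. The 131-week sample falls to about -1.20 and -1.05 in the 2 mitosis groups and young 2 stands at 0.67 and 0.48, whereas all 6 libraries sit near 0 over all genes tested.

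Because most mitosis genes were lowest in the same library, the promoter windows of the set were read for the elements named above. The windows were RefSeq sequence of build GRCm38.p6 from 250 bases before to 50 bases after the annotated start. A window was found for 36 of the 43 genes, and none for Mcm4, Gmnn, Ccna2, Ccne2, Kif20a, Tpx2 and Aurkb. The letters searched on both strands were TTTGAA and TTTAAA for the CHR, CCAAT for the NF-Y box, and TTTGGCGC, TTTCGCGC, TTTCCCGC, TTTGGCGG and GGCGGGAA for E2F sites, of which the last overlaps the other strand of TTTCCCGC. CHR letters were present in 18 of 20 mitosis genes (90%) and 7 of 16 replication genes (43.8%), against 30.6% of 27025 genes with a window. CCAAT was present in 90% and 62.5%, against 41.1% of all genes. E2F letters were present in 1 of 20 mitosis genes (Cdk1, 5.0%) and 8 of 16 replication genes (50%), against 4.51% of all genes. Counting only the 250 bases before the start, the CHR share was 60.0% for the mitosis genes and 28.1% for all genes. These are matches of letters in a window and do not show that a factor binds there.

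The windows of 5 mitosis genes are shown first, Cdk1 (chr10:69352863-69353162, minus strand), Ccnb2 (chr9:70421505-70421804, minus strand) and Plk1 (chr7:122159185-122159484, plus strand) because they code for the kinases and the cyclin that start mitosis and were lowest in the 131-week sample, and Cenpa (chr5:30666636-30666935, plus strand) and Bub1b (chr2:118597961-118598260, plus strand) because their ages did not overlap. Capitals mark the letters searched on either strand (CCAAT reads ATTGG on the other strand), and each sequence runs 5′ to 3′ on the strand of its gene.
Cdk1: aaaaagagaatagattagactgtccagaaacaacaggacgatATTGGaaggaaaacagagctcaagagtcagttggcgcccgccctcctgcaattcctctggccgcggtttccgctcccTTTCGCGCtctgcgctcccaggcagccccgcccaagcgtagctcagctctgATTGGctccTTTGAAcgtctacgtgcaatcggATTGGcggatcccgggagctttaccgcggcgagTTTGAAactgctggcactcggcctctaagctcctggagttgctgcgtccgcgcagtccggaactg
Ccnb2: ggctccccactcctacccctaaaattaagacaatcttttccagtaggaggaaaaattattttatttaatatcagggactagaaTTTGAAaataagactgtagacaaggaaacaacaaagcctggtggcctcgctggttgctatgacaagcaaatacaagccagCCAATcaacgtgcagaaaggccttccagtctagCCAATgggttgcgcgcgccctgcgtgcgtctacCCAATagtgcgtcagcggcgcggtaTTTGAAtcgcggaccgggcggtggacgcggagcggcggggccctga
Plk1: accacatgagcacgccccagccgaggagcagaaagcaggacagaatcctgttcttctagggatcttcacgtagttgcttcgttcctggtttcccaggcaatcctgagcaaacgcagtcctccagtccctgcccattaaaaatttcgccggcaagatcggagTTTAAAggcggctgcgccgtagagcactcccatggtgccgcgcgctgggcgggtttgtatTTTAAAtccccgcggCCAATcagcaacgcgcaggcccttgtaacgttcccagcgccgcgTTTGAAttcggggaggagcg
Cenpa: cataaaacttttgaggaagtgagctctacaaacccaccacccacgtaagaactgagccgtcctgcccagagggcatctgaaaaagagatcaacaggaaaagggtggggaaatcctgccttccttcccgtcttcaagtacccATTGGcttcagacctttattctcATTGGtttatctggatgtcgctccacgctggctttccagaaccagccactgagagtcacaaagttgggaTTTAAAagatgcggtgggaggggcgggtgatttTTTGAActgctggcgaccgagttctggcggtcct
Bub1b: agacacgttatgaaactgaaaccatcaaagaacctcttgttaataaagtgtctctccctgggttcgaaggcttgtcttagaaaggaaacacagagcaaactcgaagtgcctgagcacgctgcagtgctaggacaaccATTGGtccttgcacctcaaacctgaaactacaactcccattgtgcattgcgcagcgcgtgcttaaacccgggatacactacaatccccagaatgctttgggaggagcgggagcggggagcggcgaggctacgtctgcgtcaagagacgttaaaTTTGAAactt

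The windows of Mcm3 (chr1:20820263-20820562, minus strand), Mcm6 (chr1:128359656-128359955, minus strand) and Pcna (chr2:132253131-132253430, minus strand) are shown for contrast, since these were the most abundant replication genes by CPM and varied by only 1.32-fold, 1.43-fold and 1.42-fold between libraries. Both MCM windows held 3 matches to E2F letters, which partly overlap each other, and none to the CHR. The Pcna window held CCAAT letters only. Letters and variation did not run together in every gene. Bub1, Nusap1 and Cdc6 had no CHR letters and varied by 9.38-fold, 4.58-fold and 12.6-fold between libraries. Mcm2 had CHR letters and varied by 1.84-fold. The fold ranges in this paragraph are ratios of CPM without the added 0.5 CPM, unlike the medians given above. Any link between the letters and the variation was not tested.
Mcm3: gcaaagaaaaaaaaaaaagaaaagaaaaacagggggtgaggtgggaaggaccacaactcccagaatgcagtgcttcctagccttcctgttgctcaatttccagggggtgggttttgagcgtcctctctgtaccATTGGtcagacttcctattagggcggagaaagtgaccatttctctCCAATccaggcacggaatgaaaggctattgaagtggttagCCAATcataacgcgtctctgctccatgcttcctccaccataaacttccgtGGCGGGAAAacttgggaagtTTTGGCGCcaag
Mcm6: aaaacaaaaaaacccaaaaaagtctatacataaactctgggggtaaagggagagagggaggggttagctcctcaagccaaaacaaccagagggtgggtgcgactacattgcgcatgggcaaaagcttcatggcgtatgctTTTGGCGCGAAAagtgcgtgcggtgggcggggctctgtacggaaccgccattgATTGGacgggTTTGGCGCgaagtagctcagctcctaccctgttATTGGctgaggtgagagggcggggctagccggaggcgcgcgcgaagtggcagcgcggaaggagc
Pcna: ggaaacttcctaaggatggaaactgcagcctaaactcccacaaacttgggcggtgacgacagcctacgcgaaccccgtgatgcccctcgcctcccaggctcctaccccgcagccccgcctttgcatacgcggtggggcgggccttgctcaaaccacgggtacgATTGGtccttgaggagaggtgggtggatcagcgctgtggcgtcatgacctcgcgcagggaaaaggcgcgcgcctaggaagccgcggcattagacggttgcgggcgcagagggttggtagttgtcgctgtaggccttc

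The 4 genes of S-phase entry were scarce. E2f1, the activating E2F factor, stood at 5.17, 10.6 and 7.48 CPM in young and at 5.33, 2.53 and 5.32 CPM in aged ECs. The aged values thus reached into the young range at its lower end. Its log2 fold change was -0.82 ± 0.40 (SE), with an adjusted p of 0.46 in the edgeR fit. E2f8, which represses E2F targets late in S phase, stood at 1.08, 2.44 and 1.07 CPM in young and at 0.516, 0.817 and 1.1 CPM in aged ECs, the largest negative log2 fold change of the set at -0.91 ± 0.57 (SE) with an adjusted p of 0.57. Of the E-type cyclins that drive CDK2 into S phase, Ccne2 had a log2 fold change of -0.67 and Ccne1 one of 0.39, and the ages overlapped for both.

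Among the 9 licensing genes, 8 had a negative log2 fold change, with a median of -0.21. Gmnn, which codes for geminin, the inhibitor that keeps CDT1 from licensing origins again after S phase, had the smallest unadjusted p of the 43 and lies at chr13:24843714-24853792 of mm9. It stood at 8.48, 9.34 and 8.58 CPM in young and at 4.71, 4.78 and 4.87 CPM in aged ECs. The ages did not overlap, and the 3 aged libraries lay within a narrow range well under the young ones. The means were 8.80 ± 0.469 and 4.79 ± 0.0812 CPM (SD, n = 3 each), and the log2 fold change was -0.88 ± 0.21 (SE). The unadjusted p was 0.0035 in edgeR, the adjusted p was 0.24, and DESeq2 gave an adjusted p of 0.0062. Over all alternatives its adjusted p ranged from 0.0062 to 0.63 and its log2 fold change from -0.90 to -0.78, and the aged-to-young log2 difference was -0.82 in the cluster rich in Lars2 and Rn45s counts and -0.80 in the other.

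The highest and lowest libraries of the 6 helicase genes differed by 1.32-fold (Mcm3) to 2.49-fold (Mcm5). Mcm6 (mm9, chr1:130228168-130256233) stood at 96.0, 104 and 86.1 CPM in young and at 79.9, 72.5 and 82.3 CPM in aged ECs, without overlap. The log2 fold change was -0.28 ± 0.14 (SE), the adjusted p in edgeR was 0.45, and the log2 difference within the library clusters was -0.37 and -0.11. Mcm3 stood at 136, 147 and 122 CPM in young and 112, 148 and 125 CPM in aged ECs, so that the ages shared almost the whole range, with a log2 fold change of -0.07 ± 0.16 (SE) and an adjusted p of 0.91. Mcm2, which stood at 41.9, 43 and 35.6 CPM in young and 33.6, 25.2 and 46.2 CPM in aged ECs, likewise overlapped, at -0.20 ± 0.23 (SE) and an adjusted p of 0.79. Of the other subunits, Mcm4 lay at -0.005, Mcm7 at -0.21 and Mcm5 at -0.60 on the log2 fold change scale. Mcm5 overlapped in 1 library only, the 136-week sample at 33.3 CPM, which exceeded young 3 at 30.3 CPM. The licensing factor Cdc6 ranged from 0.428 CPM in the 131-week sample to 5.37 CPM in young 2, and Cdt1 from 2.68 to 6.01 CPM.

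Of the 6 genes of the replication fork and of nucleotide supply, Pcna (mm9, chr2:132074898-132079050) was the only one whose ages separated. It stood at 73.9, 80.2 and 76.6 CPM in young and at 88.1, 105 and 97.2 CPM in aged ECs. Every aged library was above every young one, with means of 76.9 ± 3.16 and 96.9 ± 8.62 CPM (SD, n = 3 each). The log2 fold change was 0.33 ± 0.13 (SE), the unadjusted p 0.037 and the adjusted p 0.37 in edgeR. The log2 difference within the same library clusters was 0.39 and 0.20. In the mm9 genome 44.3% of the 75-base stretches of the Pcna transcript also occur elsewhere, and how the counts treated reads with several matches is not given in the sources used here, so its level is uncertain. Its 131-week library was the highest of the 6, where the mitosis genes were lowest.

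Tk1, thymidine kinase of the salvage pathway, was highest in young 2 and lowest in the 131-week sample, as were Cdk1 and Top2a among the mitosis genes. It stood at 2.75, 8.80 and 4.29 CPM in young and 4.33, 0.972 and 5.40 CPM in aged ECs. The other 4 libraries of both ages lay between 2.75 and 5.40 CPM, and the log2 fold change of -0.56 ± 0.67 (SE) had an adjusted p of 0.79. Rrm2, the reductase subunit made in S phase, had the same extremes, 15.2 CPM in young 2 and 3.23 CPM in the 131-week sample, whereas its partner Rrm1, which is present through the cycle, ranged only from 65.6 to 90.8 CPM. Tyms, the thymidylate synthase, and Uhrf1, which recruits the maintenance DNA methyltransferase to new DNA, had log2 fold changes of 0.07 and -0.15.

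Among the 11 mitotic kinases, cyclins and ubiquitin ligase components, 8 had a negative log2 fold change, with a median of -0.13, and 10 were lowest in the 131-week sample. Bub1b (mm9, chr2:118423947-118467328), the spindle checkpoint kinase BUBR1, stood at 12.3, 14.9 and 19.4 CPM in young and 11, 6.46 and 11.4 CPM in aged ECs. The ages did not overlap, but the gap was narrow, between 11.4 CPM at 136 weeks and 12.3 CPM in young 1. The means were 15.6 ± 3.58 and 9.61 ± 2.74 CPM (SD, n = 3 each), and the log2 fold change was -0.70 ± 0.29 (SE) with an unadjusted p of 0.045 and an adjusted p of 0.39 in edgeR. The log2 difference within the library clusters was -0.63 and -0.79. Cdk1, the kinase that drives entry into mitosis, stood at 10.0, 20.7 and 14.1 CPM in young and at 9.25, 4.74 and 17.5 CPM in aged ECs, so the highest aged library was above 2 of the young ones. Its log2 fold change was -0.51 ± 0.48 (SE), with an adjusted p of 0.73.

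The B-type cyclins, which activate CDK1, spread more widely than the kinase. Ccnb1 ranged from 0.972 CPM at 131 weeks to 7.76 CPM at 136 weeks and Ccnb2 from 1.40 to 9.99 CPM in the same libraries, with log2 fold changes of 0.03 and 0.17, and 49.7% of the 75-base stretches of Ccnb1 occur elsewhere in mm9. Plk1, the Polo kinase, ranged from 1.05 to 7.02 CPM, also lowest at 131 and highest at 136 weeks. Ccna2, whose cyclin serves both S phase and mitosis, ranged from 2.61 CPM at 131 weeks to 15.6 CPM in young 2, with a log2 fold change of -0.56. Of the Aurora kinases, Aurka lay between 4.50 and 9.48 CPM and Aurkb between 1.52 and 6.36 CPM. The checkpoint kinase Bub1 lay between 0.467 and 4.38 CPM. Cdc20, the activator of the anaphase-promoting complex, ranged from 5.87 to 13.9 CPM and its ubiquitin-conjugating enzyme Ube2c from 0.894 to 7.84 CPM, and for both the 2 extremes were aged libraries. The ages overlapped for all of the genes in this paragraph, and their adjusted p in edgeR was between 0.63 and 0.99.

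Among the 13 chromosome, kinetochore and spindle genes, 9 had a negative log2 fold change, with a median of -0.21. Cenpa (mm9, chr5:30969150-30977200), the histone that marks centromeres and is loaded after mitosis, stood at 34.5, 31 and 26.3 CPM in young and 20.1, 23.7 and 14.2 CPM in aged ECs. The ages did not overlap, and the order of the libraries was not that of the other mitosis genes, since at 131 weeks it stood above both other aged samples. The means were 30.6 ± 4.11 and 19.3 ± 4.82 CPM (SD, n = 3 each), and the log2 fold change was -0.66 ± 0.23 (SE) with an unadjusted p of 0.022 and an adjusted p of 0.33 in edgeR. Within the library clusters the log2 difference was -0.82 and -0.38. Its most abundant companion by CPM was Top2a, at 7.63, 26.3 and 12.2 CPM in young and 12.3, 4.51 and 12.5 CPM in aged ECs, where young 2 and the 131-week sample were the extremes and the other 4 lay between 7.63 and 12.5 CPM. The log2 fold change of Top2a was -0.65 ± 0.54 (SE), with an adjusted p of 0.68.

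Mki67 stood at 1.79, 6.81 and 8.14 CPM in young and at 12.9, 1.44 and 8.57 CPM in aged ECs, so that each age held 1 library near the bottom of the range. Its log2 fold change of 0.46 ± 0.80 (SE) was the largest positive one of the set and had an adjusted p of 0.88. Kif11, the plus-end motor that pushes spindle poles apart, stood at 3.94, 8.75 and 3.44 CPM in young and 3.34, 1.79 and 4.02 CPM in aged ECs, of which the 136-week value lay inside the young range. Its log2 fold change was -0.82 ± 0.48 (SE), with an adjusted p of 0.55. Of the chromosomal passenger genes, which correct kinetochore attachments, Birc5 (survivin) ranged from 1.21 to 7.85 CPM and Cdca8 (borealin) from 0.972 to 6.28 CPM, both lowest at 131 weeks. The kinetochore genes Cenpe and Cenpf had log2 fold changes of -0.08 and 0.10, and Cenpe ranged from 0.233 CPM at 131 weeks, where it had 6 counts, to 3.60 CPM in young 3. Log2 fold changes were -0.08 for Kif20a and 0.23 for Kif23, kinesins of the central spindle, -0.25 for the spindle assembly factor Tpx2, -0.21 for the microtubule binder Nusap1, and 0.11 for Cdca3, a regulator of mitotic entry. Exons of Kif20a share 32.3% of their bases with Cdc23 on the other strand, those of Ube2c 22.8% with Tnnc2, those of Ccne2 17.4% with Ints8 and those of Ccna2 14.6% with Exosc9, and strand handling of the counts is not given in the sources used here. The shares of 75-base transcript stretches found elsewhere in mm9 were 17.6% for Uhrf1, 14.5% for Mcm7 and 14.3% for Tk1, and at most 6.19% (Tyms) for the genes of the set other than these, Ccnb1 and Pcna.

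Summed over the genes of a role, the licensing and fork genes varied less between libraries than the mitosis genes. The 9 licensing genes summed to 402, 444 and 387 CPM in young and 351, 344 and 386 CPM in aged ECs, without overlap but with young 3 and the 136-week sample next to each other. The 6 fork and nucleotide genes summed to 177, 224 and 179 CPM in young and 185, 202 and 217 CPM in aged ECs. The mitotic kinase and cyclin group summed to 57.8, 111 and 81.6 CPM in young and 71.1, 30.5 and 101 CPM in aged ECs, a range of 3.64-fold between libraries. Both ages thus covered most of the same range in the mitotic group, and 131 weeks was under all others. The chromosome and spindle group summed to 76.4, 128 and 93.5 CPM in young and 94.3, 47.3 and 91.8 CPM in aged ECs, and the 4 S-phase entry genes to 9.41, 19.1 and 14.7 CPM in young and 9.39, 10.3 and 11.4 CPM in aged ECs. All 43 genes together took 0.0619% to 0.0893% of the counts of a library, and the ratio of the aged to the young mean of their sum was 0.895.

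**Figure D4:**
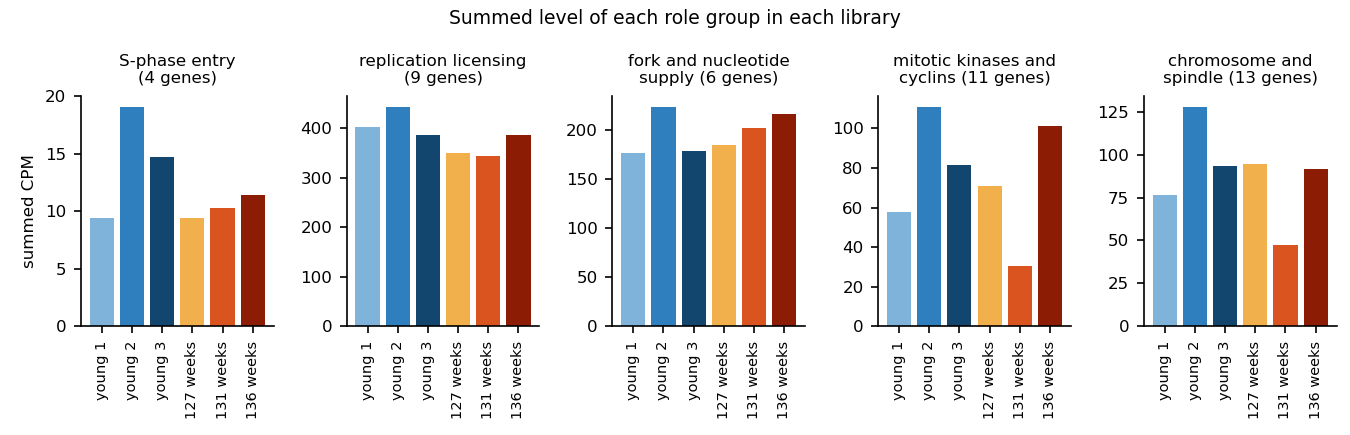
Summed TMM-normalised CPM of the genes of each role in each library (bars from 0, blue for young and orange to red for aged, a separate scale in each panel). The licensing and fork sums vary by 1.29-fold and 1.26-fold between libraries, the 2 mitosis sums by 3.64-fold and 2.72-fold, with the lowest bar at 131 weeks in both.

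The rest of the pathway was read from 147 further genes, of which 146 were tested. None was called in the edgeR fit, 2 were higher (Cenpl and Cdkn2d) and 3 lower (Ccnd2, Gins4 and Prim1) at an unadjusted p below 0.05, and the ages did not overlap for 6 higher and 9 lower. The 3 and 9 lower genes made up 2.05% and 6.16% of the 146, against 4.32% and 8.33% of all genes, and the 2 and 6 higher genes compare with 8.32% and 9.62% of all genes, so that all of these counts lay under the shares of all genes. Among 18 G1 cyclins, CDKs, pocket proteins and E2Fs, 9 lay above and 9 below zero, and the median log2 fold change was 0.02. Ccnd2, the D-type cyclin that opens G1 progression, was the most abundant of them at 372, 338 and 309 CPM in young and 274, 274 and 230 CPM in aged ECs, without overlap, at -0.39 ± 0.15 (SE) and an adjusted p of 0.37. The E2F dimerization partners Tfdp1 and Tfdp2 had log2 fold changes of 0.38 and -0.35, with adjusted p of 0.55 and 0.50 in edgeR. The ages overlapped for Tfdp1 but not for Tfdp2.

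Of 41 origin and fork proteins 33 had a negative log2 fold change, with a median of -0.17. Prim1, the primase that starts each new strand, stood at 10.2, 10.1 and 9.97 CPM in young and 7.94, 6.38 and 6.86 CPM in aged ECs, without overlap, at -0.52 ± 0.20 (SE) and an adjusted p of 0.36. Pola1, the polymerase subunit of the same complex, stood at 12.7, 12.9 and 14.8 CPM against 10.8, 9.33 and 10.6 CPM, and Gins4, part of the active helicase, at 33.9, 31.5 and 40.3 CPM against 31.1, 24.8 and 21.7 CPM. Neither overlapped between ages, and their log2 fold changes of -0.39 and -0.45 had adjusted p of 0.43 and 0.39.

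Of 80 tested mitosis proteins 55 had a negative log2 fold change, with a median of -0.18, close to the -0.17 of the 24 mitosis genes. Cenpl, a constitutive centromere protein, stood at 13.1, 12.6 and 15.8 CPM in young and 18.2, 23.4 and 20 CPM in aged ECs, without overlap, at 0.57 ± 0.19 (SE) and an adjusted p of 0.32. Its highest library was the 131-week one, unlike most genes of this list. The other named genes of the list were Gtse1, a microtubule-associated protein of dividing cells, and the centromere gene Cenph. Gtse1 lay at -1.24 ± 0.59 (SE) with an adjusted p of 0.44 in edgeR. Cenph lay at -1.59 ± 0.73 (SE) with an adjusted p of 0.43 in edgeR. Its ages did not overlap, but it had only 15 to 25 counts in young and 3 to 8 counts in aged libraries.

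Of 7 CDK inhibitors, which hold the cycle in check, 5 had a positive log2 fold change. Cdkn2d stood at 22.8, 25.4 and 33.2 CPM in young and 41.3, 41.1 and 45.8 CPM in aged ECs, without overlap, at 0.66 ± 0.18 (SE). Its unadjusted p of 0.0075 in edgeR gave an adjusted p of 0.26. Cdkn1a stood at 311, 382 and 354 CPM in young and 405, 417 and 719 CPM in aged ECs, also without overlap, at 0.56 ± 0.25 (SE) and an adjusted p of 0.42. Cdkn2a, a locus often read as a sign of senescence, was barely detected, with 9 to 14 counts in young and 3 to 10 counts in aged libraries.

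Markers of cells other than ECs also differed between libraries. They are given beside the mitosis genes, whose sums were 134, 240 and 175 CPM in young and 165, 77.8 and 193 CPM in aged ECs. The pan-leukocyte markers (7 genes, none at 0) summed to 25.2, 15.5 and 19.1 CPM in young and 52.8, 16.8 and 202 CPM in aged samples. Among these, Ptprc, which codes for the CD45 antigen excluded by the sort, stood at 1.56, 1.17 and 1.70 CPM and at 7.56, 1.28 and 25.6 CPM. Among the aged samples the order was the same for leukocyte markers and mitosis genes, and among the young the highest mitosis sum stood in the library with the lowest leukocyte sum.

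The 8 Kupffer and myeloid markers summed to 70.9, 48.0 and 93.3 CPM in young and 201, 31.9 and 486 CPM in aged samples. Among the aged samples they were again lowest at 131 and highest at 136 weeks. Their lowest young sum stood in young 2, where the mitosis sum was highest. The 8 T and NK cell markers summed to 7.59 to 9.87 and 9.92 to 42.9 CPM, and the 6 B and plasma cell markers to 1.17 to 4.17 and 1.09 to 21.6 CPM. The 6 stellate cell markers summed to 106 to 372 and 182 to 638 CPM, the 4 cholangiocyte markers to 7.29 to 24 and 20.2 to 30.8 CPM, and the 6 hepatocyte markers to 84.1 to 127 and 55.1 to 68.1 CPM, of which Ass1 had 0 to 2 counts but up to 4.11 deposited FPKM. Sums were 28.2 to 32.8 and 22.5 to 29.6 CPM for the 5 megakaryocyte and platelet markers and 23.2 to 29.0 and 14.2 to 23.0 CPM for the 6 erythroid markers, in which the globins Hba-a1 and Hbb-b1 had 0 counts in every library although the deposited FPKM were 50.4 to 224 and 25.6 to 114. For these globins and Ass1 the count table thus does not show the level that the FPKM table does, the sums leave that level out, and the cause was not tested. In the aged samples the hepatocyte, cholangiocyte, platelet and erythroid sums were lowest at 127 or 136 weeks. The 10 endothelial markers summed to 17300 to 19300 CPM in young and 9160 to 13300 CPM in aged samples. The part of these cells in the levels of the mitosis genes was not tested.

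**Figure D5:**
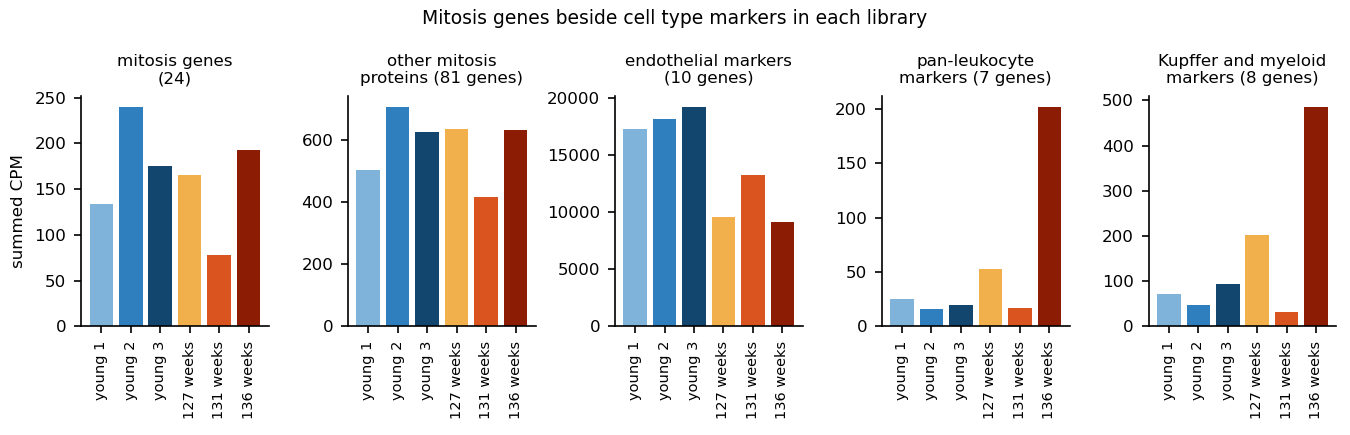
Summed TMM-normalised CPM in each library (bars from 0, separate scales) of the 24 mitosis genes, the 81 further mitosis proteins, and the endothelial, pan-leukocyte and Kupffer and myeloid markers. The 131-week sample has the lowest mitosis bars and a pan-leukocyte sum of 16.8 CPM, within the young range of 15.5 to 25.2 CPM, and the 136-week sample has a pan-leukocyte sum of 202 CPM.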

How the data were processed

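The authors deposited raw read counts per gene and FPKM normalized across samples, made from 75-base single-end reads. Per the labels, reads were called with CASAVA 1.8.2 and aligned to mm9 with TopHat2 2.1.0, and FPKM came from Cuffnorm 2.2.1. The counting program, its annotation, strand setting and treatment of reads with several matches are not given in the sources used here.

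The 43 genes, their roles and the further lists were chosen with earlier results of these data known. Samples were grouped by the age in their labels. The deposited counts were tested in R 4.3.3 with edgeR 4.0.16 (quasi-likelihood, TMM), over 14612 genes with at least 0.5 CPM in at least 1 library and Benjamini-Hochberg adjustment over all of them. A gene was called at an adjusted p below 0.05. The test was checked on simulated data. Full statistics are given for, in each role, the member with the highest CPM, the smallest p and the largest absolute log2 fold change. They are also given for members at an unadjusted p below 0.05 or without overlap, and for Mki67, Top2a, Pcna, Mcm2 and Cdk1. Genes with the 3 smallest p-values of each further list are named with their log2 fold changes or counts. Alternatives used DESeq2 1.42.0, limma 3.58.1 (voom weights, and log2 of deposited FPKM plus 0.1 or 1), other scalings and filters, a term for the library cluster, and each library left out. Replicates of 1 age differed by more than sampling noise (chi-square per degree of freedom at least 20.2). Marker lists covered endothelial, pan-leukocyte, T and NK, B and plasma, Kupffer and myeloid, hepatocyte, stellate, cholangiocyte, platelet and erythroid genes. Gene positions, exon overlaps and transcript stretches came from the mm9 (NCBIM37) genome and its GENCODE annotation, and promoter windows came from RefSeq GRCm38.p6.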

Additional observations from a re-analysis of the deposited data

How the results depend on the processing

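For the log2 fold changes of 26 named genes, 487 recomputed values kept their direction and their side of the threshold, 1 passed it (Gmnn under DESeq2, adjusted p 0.0062) and 3 changed sign. The changes of sign were those of Mcm3 and Mki67 without the 127-week sample and of Tk1 without young 2. Leaving out each library in turn gave -0.188 to 0.02 for Mcm3, -0.154 to 0.946 for Mki67 and -0.982 to 0.018 for Tk1. Genes of the set called lower went from 0 to 1 under DESeq2. Genes of the set at an unadjusted p below 0.05 went from 1 to 0 higher and from 3 to 1 lower at a cutoff of 0.01, and, leaving out each library in turn, lay between 0 and 1 higher and between 1 and 5 lower. Genes of the set without overlap and lower went from 4 to 2 with total counts alone. Further pathway genes at an unadjusted p below 0.05 lay between 1 (without young 1 or young 2) and 4 (without the 131-week sample) higher and between 0 (without young 2) and 5 (without the 127-week sample) lower, against 2 and 3 with all, and were 1 lower without young 1 or young 3. The lower count was 0 with total counts alone, 6 with the cluster term and 5 under DESeq2, with log2(FPKM + 1), and over genes at 0.1 FPKM or more in every library. CHR letters went from 69.4% to 47.2% of the genes of the set with a window in the bases before the start alone. The cause of these shifts was not tested, except that the stricter cutoff and the shorter window can only lower a count. No paired analysis was run, because young and aged samples came from different mice and the labels link none of them. With 3 samples an age, the edgeR fit called 0 of 14612 genes, and the smallest adjusted p was 0.0735. The median SE of the log2 fold changes of the mitosis genes was 0.54. Small age differences were therefore not detectable, and larger ones may also have gone uncalled.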
